A study of Homo sapiens with 24 samples.

Results

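The knockdown of EP300 in androgen-treated prostate cancer cells was described from 8 of the 24 arrays in the series. They were the 4 arrays of C4-2B cells given an siRNA against EP300 (sip300) and harvested after 16 h with 10 nM dihydrotestosterone (DHT), and the 4 arrays given the non-specific control siRNA (siNS) and the same hormone for as long. Both groups were chosen by their titles, with no use of measured values. C4-2B is an androgen-responsive human prostate cancer line descended from LNCaP, so every array shares 1 cell line, and the labels give 1 siRNA name per target with no sequence. All cells had been kept for 3 days in phenol-red-free RPMI medium with 5% charcoal-stripped serum, which removes steroids. The other 16 arrays were siNS and sip300 cells at 0 h of DHT and cells with an siRNA against CREBBP (siCBP) at 0 h and 16 h, 4 arrays each. The titles name no vehicle and no common harvest time, so hormone and the 16 h themselves cannot be told apart in any comparison with 0 h. Replicates carry numbers only, and whether each was its own culture is not stated, so the p-values rest on a spread that may be technical.

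EP300 encodes p300, a lysine acetyltransferase that acetylates histones at enhancers and promoters and serves as a coactivator for many transcription factors. CREBBP encodes CBP, its close paralog, which shares most of its domains. DHT is the potent androgen of the prostate, and coactivators, p300 and CBP among them, are recruited under it to genes such as KLK3, the gene of prostate-specific antigen. The series title names the question, which is how p300 and CBP differ in androgen-regulated expression.

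Mean signals of the 8 arrays lay between 601.3 and 877.6 intensity units, and 17701 to 19830 probes were detected on each. Levels below are log2 signals of 1 probe per gene after background correction and quantile normalisation, comparable between arrays but not between genes. Differences are sip300 minus siNS on the log2 scale, ± SE, from a limma fit with replicate number as a block and 4 arrays a group. A gene was called at a Benjamini-Hochberg adjusted p under 0.05 over 12438 genes. Each of the 2 slides held 2 arrays of either group. The luminal keratin genes KRT8 and KRT18, HOXB13 and KLK3 were detected, while the basal keratin genes KRT5, KRT14 and KRT15 were detected on none of the 8 arrays.

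The siRNA lowered its target. EP300 (probe ILMN_1744665) measured 8.59, 7.90, 8.53 and 8.60 on siNS arrays 1 to 4 and 7.28, 6.69, 7.58 and 7.32 on sip300 arrays 1 to 4. Every sip300 array lay below every siNS array, and siNS array 2 lay apart from the other siNS arrays on the low side. The difference was -1.19 ± 0.18 (adjusted p = 0.000129), which left 43.9% of the siNS signal. The probe reads RNA only, so p300 protein was not measured. CREBBP measured 9.57, 9.70, 9.31 and 9.34 on siNS arrays 1 to 4 and 10.19, 10.02, 9.86 and 9.71 on sip300 arrays 1 to 4. Its arrays did not overlap either, with sip300 above siNS, but the difference of 0.47 ± 0.18 did not pass the test (adjusted p = 0.071). A second CREBBP probe, detected on 2 of the 8 arrays, differed by 0.57.

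**Figure D1:**
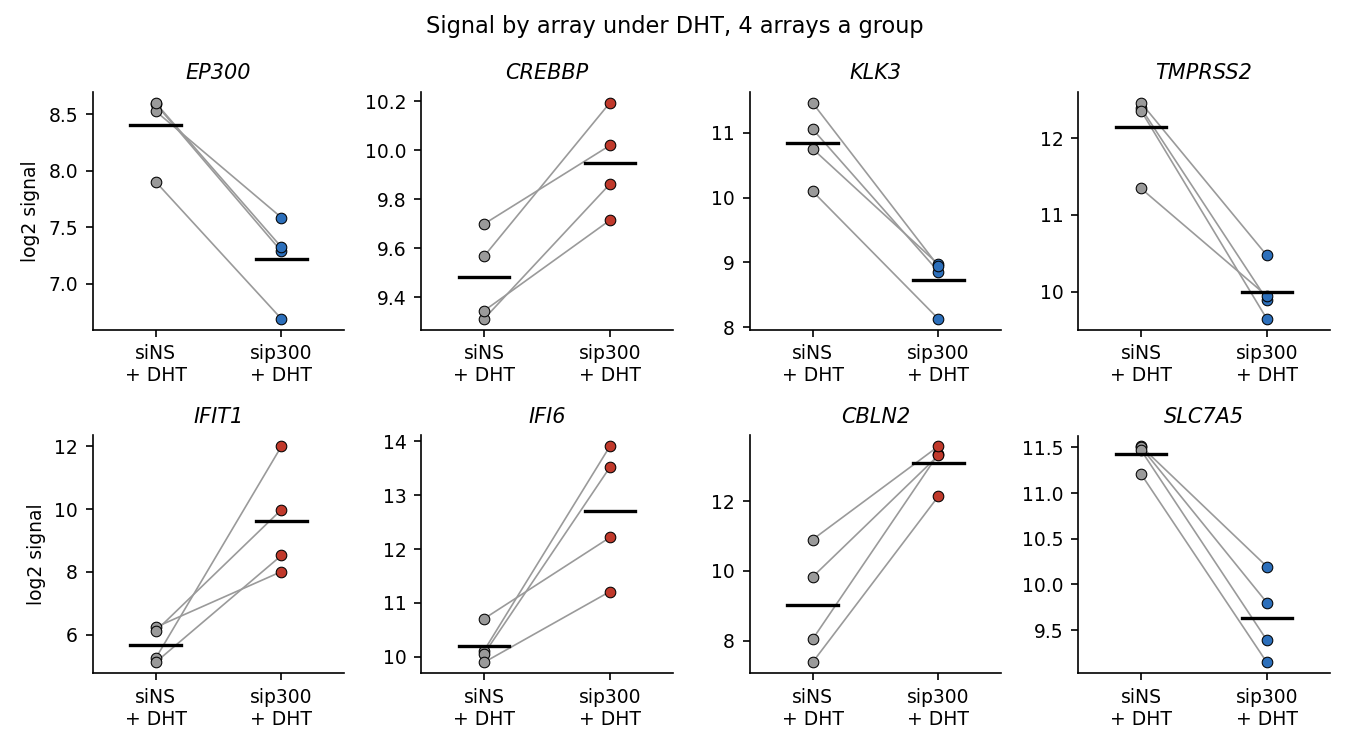
Log2 signal (vertical axis) on each array under DHT for 8 genes, with siNS at left and sip300 at right. Grey lines join arrays with the same replicate number, black bars are means of 4 arrays, and each axis has its own range. The groups do not overlap in any of the 8 panels, and the IFIT1 and IFI6 values of sip300 cells spread more widely than those of siNS cells.

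Knockdown moved a large part of the measured transcriptome in both directions. Of 12438 genes, 3101 were called (24.9%), 1730 higher (13.9%) and 1371 lower (11%), and 4457 had an unadjusted p under 0.05. The median difference over all genes was 0.03, so directions are given as measured. Without the replicate block 1815 genes were called, 1018 higher and 797 lower, and 428 on slide 1 and 40 on slide 2 when each was fitted by itself, with 2 arrays a group. Of the genes called over both slides, 1712 of 1730 higher and 1368 of 1371 lower genes had that sign on both slides, a count that their selection on the same arrays raises. Most differences were moderate, with a median size of 0.65 for higher and 0.67 for lower genes. Over 2-fold were 261 higher and 255 lower genes, and over 4-fold 21 and 22. The 4 sip300 arrays lay wholly above the 4 siNS arrays for 1308 genes (10.5%) and wholly below for 1052 (8.46%), and among called genes this held for 1083 and 870.

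Called genes were spread over signal levels. Over 4 equal bins of mean signal, in the dimmest 5.76% were called higher and 3.92% lower, against 16.7% and 11.8%, 17.8% and 14.7%, and 15.4% and 13.7% in the next bins. A called gene often had further passing probes, 1183 in all. Of these 1053 (89.0%) had the sign of the probe used, 670 (56.6%) with an unadjusted p under 0.05, and 13 (1.10%) had the opposite sign at that threshold.

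**Figure D2:**
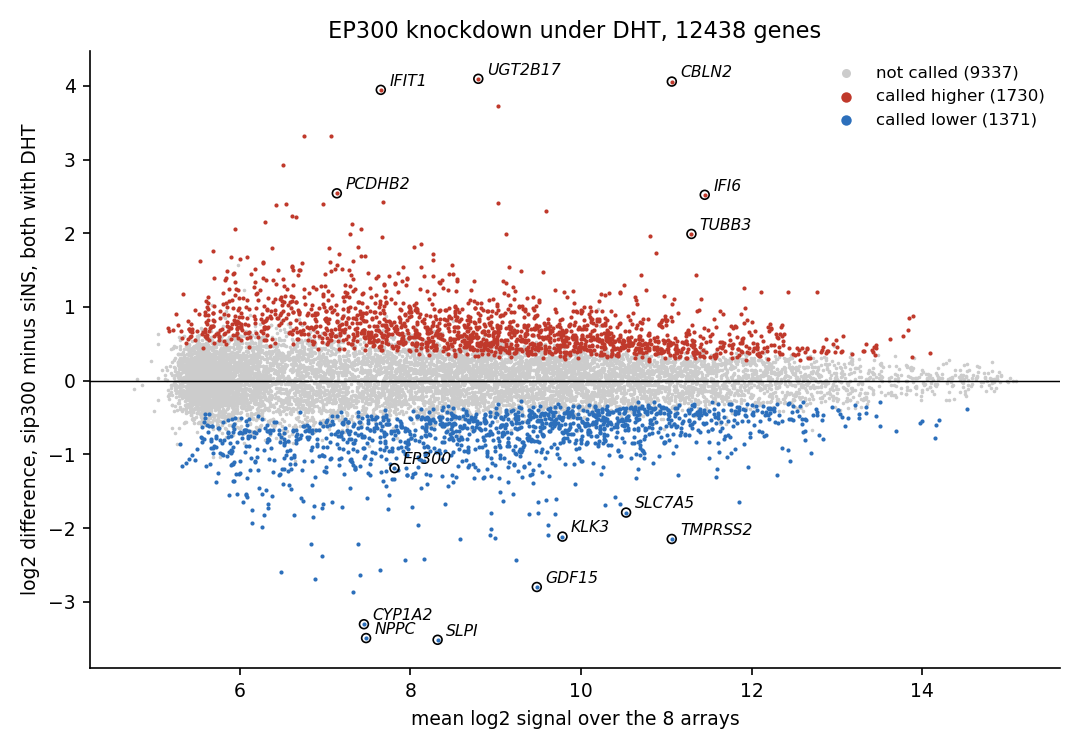
Log2 difference between sip300 and siNS under DHT (vertical axis) against the mean log2 signal over the 8 arrays (horizontal axis), 1 point per gene, red for the 1730 genes called higher and blue for the 1371 called lower. Circled points are named, with CBLN2, UGT2B17 and IFIT1 near 4 on the vertical axis and SLPI and NPPC near -3.5.

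Among the genes that rose most were a synaptic organiser, antiviral genes and genes of the cytoskeleton and cell surface. CBLN2, which encodes a secreted cerebellin that organises synapses, measured 8.04, 9.83, 10.90 and 7.38 on siNS arrays 1 to 4 and 13.35, 13.31, 13.57 and 12.14 on sip300 arrays 1 to 4. The siNS arrays spread over several log2 units, yet all lay below the lowest sip300 array, and the difference was 4.06 ± 0.35 (adjusted p = 7.67e-07). PCDHB2, a clustered protocadherin gene, measured 5.85, 5.96, 6.18 and 5.47 on siNS arrays 1 to 4 and 8.60, 8.57, 8.48 and 7.99 on sip300 arrays 1 to 4. Its difference of 2.54 ± 0.17 carried the smallest adjusted p among the named genes (5.18e-08), and 2 of 4 siNS arrays detected it. NTNG1, a netrin-family axon guidance gene, differed by 2.40, and MMP16, a membrane-bound matrix metalloprotease gene, by 2.41. MAP1B, a microtubule-associated protein of neurons, differed by 2.30 ± 0.49 and TUBB3, the neuronal beta-tubulin, by 1.99 ± 0.18.

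RCAN2, an inhibitor of calcineurin, passed detection on 0 of 4 siNS arrays and 4 of 4 sip300 arrays, so it was at least 3.44-fold higher (adjusted p = 2.96e-06). This bound sets the undetected group at the lowest signal that passed detection on each array. LIX1L differed by 2.23, ABTB1, a BTB-domain gene, by 2.13, and PROS1, the gene of anticoagulant protein S, by 2.00. All 4 values of each lay above the siNS range. Smaller rises among genes with high signal were those of GNAS, the stimulatory G protein alpha subunit, by 0.38, H2BC12, a histone H2B gene, by 0.61, ATP6V1F, a subunit of the vacuolar proton pump, by 0.49 and MAGED1 by 0.44. MARCKSL1, an actin-regulating gene, differed by 0.69 (adjusted p = 0.000279, and 0.0509 without the block).

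The genes that fell most included secreted factors, receptors and metabolic enzymes. NPPC, which encodes a natriuretic peptide precursor, measured 9.99, 9.43, 7.39 and 10.10 on siNS arrays 1 to 4 and 6.23, 5.89, 5.12 and 5.69 on sip300 arrays 1 to 4. The siNS array 3 was the lowest of its group and still lay above every sip300 array, and the difference was -3.49 ± 0.44 (adjusted p = 2.03e-05). CYP1A2, a cytochrome P450 monooxygenase gene, measured 9.68, 7.66, 8.91 and 10.18 on siNS arrays 1 to 4 and 6.23, 5.45, 5.80 and 5.72 on sip300 arrays 1 to 4 and differed by -3.31 ± 0.48. RPRML, a homolog of the cell cycle inhibitor gene RPRM, differed by -2.87 ± 0.21 (adjusted p = 1.58e-07). For NPPC, CYP1A2 and RPRML, 2 of 4 sip300 arrays passed detection, so their signals ended near background.

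GDF15, a stress-induced cytokine of the TGF-beta superfamily, measured 9.68, 12.79, 9.82 and 11.25 on siNS arrays 1 to 4 and 7.21, 8.63, 7.60 and 8.89 on sip300 arrays 1 to 4. Arrays 2 and 4 were the higher ones in both groups, sip300 lay lower at each number, and the difference was -2.80 ± 0.28 (adjusted p = 2.74e-06). HTR3A, a subunit of the serotonin-gated ion channel, differed by -2.64, and PHLDA2, an imprinted growth-restraining gene, by -2.43. ZC3H12A, the RNase that degrades inflammatory transcripts, differed by -2.22, GALNT18, a glycosyltransferase gene, by -2.22 and C9orf152 by -2.44. COLEC12, a scavenger receptor gene, was detected on 4 siNS and 0 sip300 arrays and was at least 4.02-fold lower (adjusted p = 1.3e-05). S1PR3, a sphingosine-1-phosphate receptor gene, differed by -2.57 (adjusted p = 0.000135, and 0.0971 without the block). Smaller decreases at high signal were those of H4C3, a histone H4 gene, by -0.54 and DBI, which encodes acyl-CoA-binding protein, by -0.57.

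Genes known to be induced by androgen were lower in many cases and higher in none. Of 35 measured members of that list, 21 fell (60.0%, against 11% of all genes) and 0 rose, with a median difference of -0.77 (18 fell without the block). At 0 h of DHT 19 of these members were lower and 0 higher, with a median of -0.62, while 9.29% of all genes were lower. KLK3 measured 10.75, 11.06, 10.10 and 11.46 on siNS arrays 1 to 4 and 8.97, 8.86, 8.13 and 8.94 on sip300 arrays 1 to 4, and KLK2, a kallikrein protease that activates prostate-specific antigen, measured 10.71, 10.64, 10.18 and 10.83 on siNS arrays 1 to 4 and 8.94, 8.66, 8.43 and 8.48 on sip300 arrays 1 to 4. Both genes were lower on every sip300 array than on any siNS array, by -2.12 ± 0.37 (adjusted p = 0.000467) and -1.96 ± 0.31 (adjusted p = 0.000195). TMPRSS2, a serine protease whose promoter is fused to ETS genes in many prostate cancers, measured 12.39, 12.46, 11.34 and 12.36 on siNS arrays 1 to 4 and 9.90, 10.47, 9.94 and 9.65 on sip300 arrays 1 to 4. Only siNS array 3 came within 1 log2 unit of the sip300 arrays, and the difference was -2.15 ± 0.28 (adjusted p = 2.7e-05).

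Several less known members fell as well. SLC2A3, the glucose transporter GLUT3, measured 8.33, 8.87, 7.56 and 8.15 on siNS arrays 1 to 4 and 5.94, 4.75, 5.43 and 6.03 on sip300 arrays 1 to 4, and 2 of 4 sip300 arrays passed detection. The difference was -2.69 ± 0.23 (adjusted p = 7.67e-07). PGC, the gene of pepsinogen C, measured 9.57, 9.25, 8.24 and 9.57 on siNS arrays 1 to 4 and 6.79, 6.97, 6.26 and 6.86 on sip300 arrays 1 to 4 and differed by -2.44 ± 0.23 (adjusted p = 1.41e-06). ALDH1A3, an enzyme of retinoic acid synthesis, differed by -2.09 ± 0.24 and EAF2, a transcription elongation factor, by -1.27 ± 0.17. BAMBI, another member that fell, was itself lower at 16 h than at 0 h of DHT in siCBP cells. There the limma difference was -1.21 (adjusted p = 0.000566). Not every member moved. FKBP5, a co-chaperone of steroid receptors, measured 13.55, 13.71, 13.35 and 13.44 on siNS arrays 1 to 4 and 13.56, 13.18, 13 and 13.05 on sip300 arrays 1 to 4. Its groups overlapped, through sip300 array 1, and the difference of -0.32 ± 0.15 did not pass (adjusted p = 0.141).

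The KLK3 promoter is printed because this gene is the standard readout of androgen response. RefSeq places it on GRCh38.p14 at chr19:50854665-50854964, plus strand, 250 bases before to 50 after the start, with the androgen response element half-site AGAACA in capitals.
KLK3: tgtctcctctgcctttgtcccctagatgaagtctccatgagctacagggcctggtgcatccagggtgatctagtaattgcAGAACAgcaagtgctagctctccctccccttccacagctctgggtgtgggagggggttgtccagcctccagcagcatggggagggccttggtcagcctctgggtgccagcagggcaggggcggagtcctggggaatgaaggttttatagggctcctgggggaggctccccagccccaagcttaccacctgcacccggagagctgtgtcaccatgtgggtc
The match begins at position -170 relative to the start. On either strand, AGAACA occurred in 1 of 15 promoters matched among the androgen-induced genes that fell (6.67%), in 9.24% of the promoters of tested genes and in 14.9% of all 27305 promoters. Enhancers lie outside these windows.

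Genes known to be repressed by androgen went both ways. Of 17 measured, 5 rose (29.4%, against 13.9% of all genes) and 3 fell (17.6%, against 11%), with a median of 0.20. Without the block 1 rose and 2 fell. Of the 5 that rose, 4 were UGT2B genes, which encode enzymes that glucuronidate and so inactivate DHT. UGT2B17 measured 5.42, 6.94, 8.77 and 5.86 on siNS arrays 1 to 4 and 9.59, 12.53, 13.23 and 8.02 on sip300 arrays 1 to 4. At each number sip300 was higher, but arrays 2 and 3 exceeded arrays 1 and 4 in both groups, so the groups overlapped. The difference was 4.10 ± 0.44 (adjusted p = 4.83e-06, and 0.0688 without the block). UGT2B15, undetected on all 4 siNS arrays, was at least 5.96-fold higher (adjusted p = 0.00134, and 0.0921 without the block), while a second UGT2B15 probe, detected on 2 of the 8 arrays, differed by 0.70 (unadjusted p = 0.0868). UGT2B28 differed by 2.40 (adjusted p = 0.000207). UGT2B transcripts are nearly identical in long stretches, so which of them each probe read is uncertain. CAMK2N1, an inhibitor of calmodulin-dependent kinase, fell by 1.65.

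**Figure D3:**
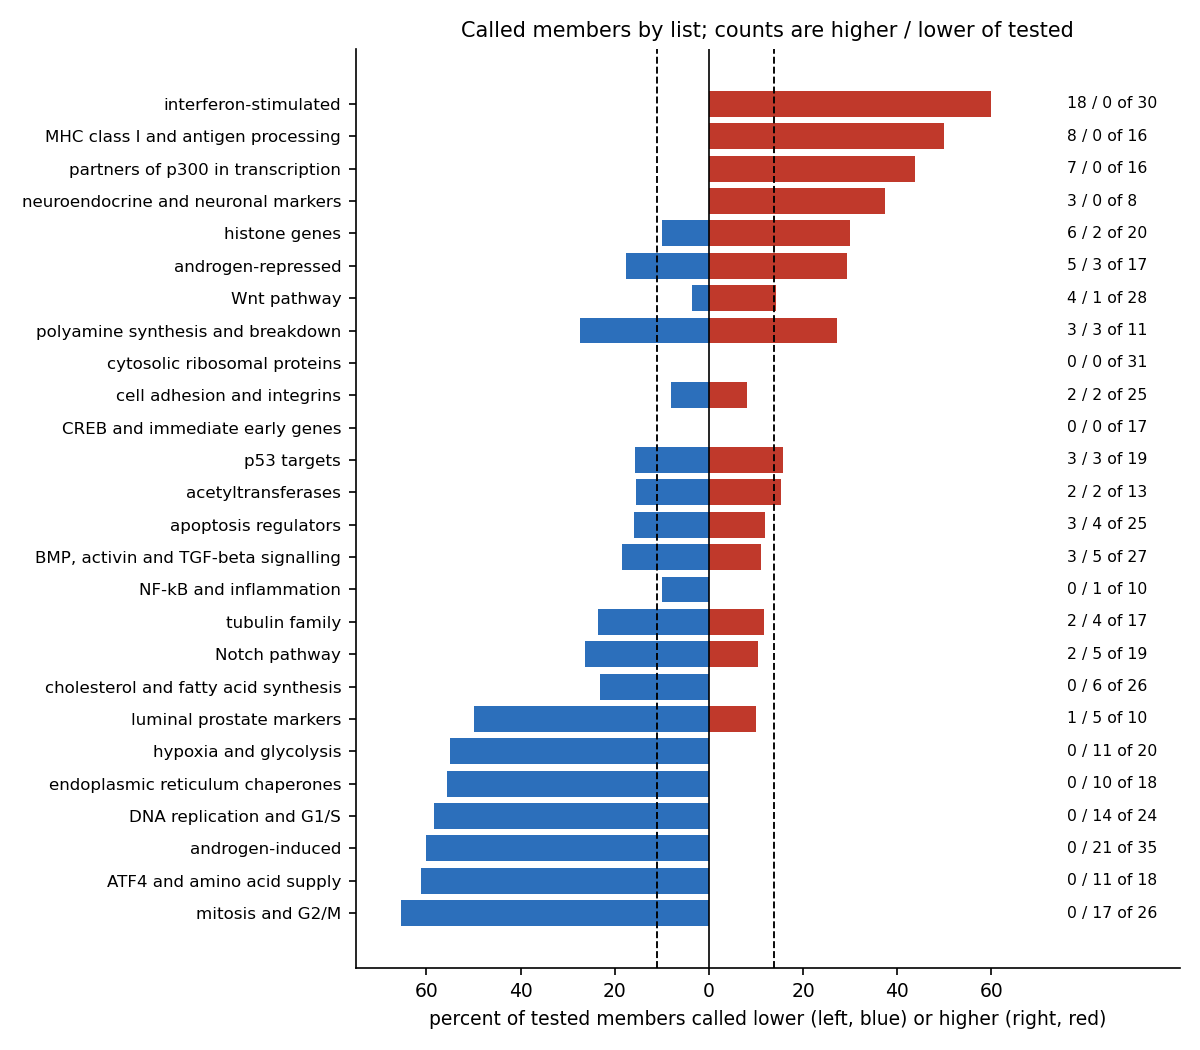
Percent of the tested members of each list called lower (blue, left) or higher (red, right) in sip300 against siNS cells under DHT, for lists with at least 8 tested members. Dashed lines mark the shares over all genes, 11% lower and 13.9% higher, and the counts at right are higher and lower of tested. Interferon-stimulated genes lead on the right, and mitotic, amino acid supply and androgen-induced genes lead on the left.

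Interferon-stimulated genes, which encode antiviral proteins, rose in many cases. Of 30 measured, 18 rose (60.0%, against 13.9% of all genes) and 0 fell, with a median of 0.95 (16 rose without the block). IFIT1, which binds foreign RNA caps, measured 5.25, 6.24, 6.11 and 5.12 on siNS arrays 1 to 4 and 12, 8.01, 9.98 and 8.52 on sip300 arrays 1 to 4. The siNS arrays lay at or near background, with 2 of 4 detected, while the sip300 arrays were all detected and ranged widely, highest on array 1. The difference was 3.95 ± 0.60 (adjusted p = 0.000139), although a second IFIT1 probe, detected on 3 of the 8 arrays, differed by 0.22. IFIT2, of the same family, measured 5.38, 5.86, 5.28 and 5.12 on siNS arrays 1 to 4 and 11.21, 7.27, 9.10 and 7.30 on sip300 arrays 1 to 4 and differed by 3.31 ± 0.65 (adjusted p = 0.00112). IFI6, a mitochondrial and endoplasmic reticulum antiviral protein, measured 10.11, 10.70, 10.05 and 9.89 on siNS arrays 1 to 4 and 13.91, 12.21, 13.52 and 11.21 on sip300 arrays 1 to 4, again highest on sip300 arrays 1 and 3, and differed by 2.52 ± 0.36 (adjusted p = 7.77e-05).

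IFI44 differed by 2.06 (adjusted p = 0.000168) and SP110, a nuclear body gene, by 1.21 (adjusted p = 6.75e-05). Of 3 further SP110 probes 1, detected on 1 of the 8 arrays, differed by 0.01. IRF1, a transcription factor that induces such genes, was undetected in siNS cells and at least 2.36-fold higher (adjusted p = 0.000178). Summed over the list, the linear signal ranged from 14950 to 16440 units on siNS arrays and from 20940 to 62000 on sip300 arrays. At 0 h of DHT the same list had 18 higher and 0 lower members, while 11.6% of all genes were higher and 9.29% lower. In siCBP cells under DHT it had 0 and 0, but only 0.0643% of all genes were higher there and 0.121% lower. A count of 0 in a list of this size therefore says little about siCBP.

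The promoters of IFIT1 and IFI6 are shown because both genes rose strongly and hold the interferon-stimulated response element core, which is GAAA, any 2 bases and GAAA. IFIT1 lies at chr10:89392373-89392672, plus strand, and IFI6 at chr1:27672143-27672442, minus strand (RefSeq, GRCh38.p14), both read in the gene's direction from 250 bases before the start. Capitals mark each match, which in IFIT1 is read on the opposite strand.
IFIT1: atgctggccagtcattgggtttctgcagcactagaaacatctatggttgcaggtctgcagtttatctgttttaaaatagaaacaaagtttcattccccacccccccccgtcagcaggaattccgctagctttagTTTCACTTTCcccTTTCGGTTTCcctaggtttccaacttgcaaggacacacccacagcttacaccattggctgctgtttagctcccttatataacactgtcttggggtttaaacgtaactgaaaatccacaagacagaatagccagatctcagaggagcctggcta
IFI6: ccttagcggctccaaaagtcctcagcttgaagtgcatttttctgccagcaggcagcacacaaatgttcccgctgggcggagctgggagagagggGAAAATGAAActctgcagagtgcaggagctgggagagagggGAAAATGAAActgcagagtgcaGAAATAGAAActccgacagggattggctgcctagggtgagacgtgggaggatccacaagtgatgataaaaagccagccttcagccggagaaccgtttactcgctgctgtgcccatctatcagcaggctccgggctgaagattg
IFIT1 held 2 and IFI6 3 matches, none overlapping another or an AGAACA match. On either strand the core occurred in 7 of 15 promoters matched among the interferon-stimulated genes that rose (46.7%), in 2.86% of the promoters of tested genes and in 3.65% of all promoters. Besides IFIT1 and IFI6 these were IFI27, IFI44, IFITM3, ISG15 and MX1. Among all genes called higher it occurred in 3.67%, and among those called lower in 1.76%. List members that did not rise were not counted separately, so the share of 46.7% is not tied to the rise.

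Antigen presentation genes rose in part, with smaller differences. Of 16 measured, 8 rose (50%, against 13.9% of all genes) and 0 fell (4 and 0 without the block), with a median of 0.24. TAP1, which pumps peptides into the endoplasmic reticulum, measured 9.72, 9.37, 9.36 and 9.50 on siNS arrays 1 to 4 and 10.86, 9.81, 10.36 and 10.61 on sip300 arrays 1 to 4 and differed by 0.93 ± 0.16 (adjusted p = 0.00043). Its lowest sip300 value, on array 2, lay just above the highest siNS value. HLA-F, a nonclassical class I gene, differed by 0.70 (adjusted p = 0.000879), while another passing probe of it differed by 0.05. HLA-B, a classical class I gene whose sequence is shared in part with other class I genes, differed by 0.65 (adjusted p = 0.0159, and 0.0867 without the block), with the call lost without siNS array 3 or sip300 array 1 (adjusted p up to 0.0783). Of 10 measured NF-kB and inflammation genes only SOD2, the mitochondrial superoxide dismutase, was called, with a lower value (10.0%, against 11% of all genes). It differed by -0.43 (adjusted p = 0.0206, and 0.157 without the block). That call was lost without siNS array 1 or 2 or sip300 array 1 or 3 (adjusted p up to 0.071). A second SOD2 probe, detected on all 8 arrays, differed by -0.73 (limma unadjusted p = 0.000171).

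Many cell cycle genes fell. Of 24 measured genes of DNA replication and the G1/S transition, 14 fell (58.3%, against 11% of all genes) and 0 rose (10 and 0 without the block), with a median of -0.62. PCNA, the sliding clamp of DNA polymerase, measured 11.51, 11.56, 11.83 and 11.33 on siNS arrays 1 to 4 and 10.51, 10.97, 10.64 and 10.59 on sip300 arrays 1 to 4. All sip300 values lay below all siNS values, and the difference was -0.88 ± 0.16 (adjusted p = 0.000586). TK1, thymidine kinase, differed by -0.91 (adjusted p = 0.0022), CDC45, part of the replicative helicase, by -1.03 (adjusted p = 0.00191) and CDT1, which licenses origins, by -0.84 (adjusted p = 0.0013). CDC6, also needed for licensing, was detected on 3 siNS and 0 sip300 arrays and was at least 1.4-fold lower (adjusted p = 0.00149).

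Of 26 mitotic and G2/M genes, 17 fell (65.4%, against 11% of all genes) and 0 rose (11 and 0 without the block), with a median of -0.59. CDC20, an activator of the anaphase-promoting complex, measured 12.71, 12.25, 12.53 and 12.64 on siNS arrays 1 to 4 and 11.54, 12.09, 11.72 and 11.85 on sip300 arrays 1 to 4 and differed by -0.73 ± 0.18 (adjusted p = 0.00476). NEK2, a centrosomal kinase, differed by -0.96, MAD2L1, a spindle checkpoint gene, by -0.89, KIF2C, a microtubule-depolymerising kinesin, by -0.81 and NUSAP1, a spindle protein, by -0.59. A second MAD2L1 probe differed by -0.06. Whether fewer cells were in cycle or each held less of these RNAs cannot be told apart in bulk RNA. CDKN1A, the p21 inhibitor of cyclin-dependent kinases, fell as well, by 0.83 ± 0.17 (adjusted p = 0.00167).

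The p53 target list, which holds CDKN1A and GDF15, had 3 higher and 3 lower members of 19 (1 and 3 without the block). Of its other named members, SPATA18, a gene of mitochondrial quality control, was undetected in siNS cells and at least 1.25-fold higher (adjusted p = 0.00238). TNFRSF10B, a death receptor for TRAIL, differed by -0.42 (adjusted p = 0.0165) and TP53INP1 by 0.67 (adjusted p = 0.00456, and 0.0935 without the block). The TNFRSF10B call was lost without sip300 array 2 or 4 (adjusted p up to 0.0663). Other TNFRSF10B probes, detected on all 8 arrays, differed by -0.82 and -1.07 (limma unadjusted p = 0.000152 and 4.91e-07). Of 25 apoptosis regulators 3 were higher and 4 lower (3 and 2 without the block). Both lists had shares near the 13.9% and 11% of all genes. BIK, a killer of the BCL2 family, measured 9.53, 8.20, 8.25 and 8.72 on siNS arrays 1 to 4 and 7.48, 7.28, 7.38 and 7.57 on sip300 arrays 1 to 4 and differed by -1.25 ± 0.18 (adjusted p = 7.58e-05). DIABLO, which blocks inhibitors of apoptosis, differed by -0.74, CASP6, an executioner caspase, by 1.21, CASP2 by 0.51 and APAF1, the core of the apoptosome, by 0.68. The APAF1 call was lost without siNS array 2 or sip300 array 1 or 4 (adjusted p up to 0.0692).

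Genes that supply amino acids, folded secretory proteins, lipids and glycolytic energy fell in part. Of 18 members of the ATF4 and amino acid list, 11 fell (61.1%, against 11% of all genes) and 0 rose (7 and 0 without the block), with a median of -0.54. SLC7A5, the light chain of the large neutral amino acid transporter, measured 11.21, 11.51, 11.50 and 11.47 on siNS arrays 1 to 4 and 9.15, 10.20, 9.80 and 9.39 on sip300 arrays 1 to 4. The siNS arrays were tightly grouped and every sip300 array lay at least 1 log2 unit lower than any of them, with a difference of -1.79 ± 0.16 (adjusted p = 7.67e-07). The mitochondrial folate enzymes MTHFD2 and SHMT2 differed by -0.75 and -0.54, the serine synthesis enzyme PHGDH by -0.54 and TRIB3, a pseudokinase induced by ATF4, by -0.53. DDIT4, an inhibitor of mTORC1, differed by -1.03 (adjusted p = 0.00103, and 0.0835 without the block).

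Of 18 endoplasmic reticulum chaperone genes, 10 fell (55.6%, against 11% of all genes) and 0 rose (5 and 0 without the block), with a median of -0.43. SDF2L1, a cofactor of the chaperone BiP, measured 12.44, 12.19, 12.25 and 12.44 on siNS arrays 1 to 4 and 11.64, 11.74, 11.52 and 11.60 on sip300 arrays 1 to 4 and differed by -0.71 ± 0.11 (adjusted p = 0.000192), with no overlap. DNAJC3, an inhibitor of the kinase PERK, differed by -1.02 (adjusted p = 0.000428), PDIA4, a disulfide isomerase, by -0.69 (adjusted p = 0.00197) and MANF, a secreted stress-response factor, by -0.48 (adjusted p = 0.0269). DNAJB9 differed by -0.67 (adjusted p = 0.00527, and 0.0516 without the block) and PDIA6 by -0.49 (adjusted p = 0.00386, and 0.0661 without the block). The MANF call was lost without siNS array 2 or 4 or sip300 array 1, 2 or 4 (adjusted p up to 0.0901). At 0 h of DHT 1 of these 18 was higher and 3 lower, with a median of -0.09, while 11.6% of all genes were higher and 9.29% lower. No chaperone gene was among the genes whose differences at 0 h and 16 h were called apart.

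Of 26 genes of cholesterol and fatty acid synthesis, 6 fell (23.1%, against 11% of all genes) and 0 rose (4 and 0 without the block), with a median of -0.30. FASN, fatty acid synthase, differed by -0.69 (adjusted p = 0.00672), the desaturase gene FADS1 by -0.51 (adjusted p = 0.00309), the sterol isomerase gene EBP by -0.63 (adjusted p = 0.00583) and INSIG1, which holds the sterol sensor in place, by -0.58 (adjusted p = 0.00949). SCD, a desaturase, differed by -0.43 (adjusted p = 0.03, and 0.219 without the block), and its call was lost without siNS array 1 or 2 or sip300 array 1 or 4 (adjusted p up to 0.133). Of 20 hypoxia and glycolysis genes 11 fell (55.0%, against 11% of all genes) and 0 rose, with a median of -0.48, but 4 fell without the block. ANKRD37, a target of hypoxia-inducible factor, measured 10.61, 10.94, 9.59 and 10.05 on siNS arrays 1 to 4 and 8.27, 9.19, 8.07 and 8.40 on sip300 arrays 1 to 4 and differed by -1.81 ± 0.19 (adjusted p = 2.96e-06). The glucose transporter gene SLC2A1 differed by -1.17 (adjusted p = 6.82e-05) and hexokinase gene HK2 by -1.29 (adjusted p = 0.000251). VEGFA, a growth factor for vessels, differed by -0.96 (adjusted p = 0.000595, and 0.144 without the block) and LDHA, lactate dehydrogenase A, by -0.60 (adjusted p = 0.00282, and 0.111 without the block).

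Polyamine genes divided by role only in part. The synthesis genes ODC1, AMD1 and SRM fell by 0.77, 1.20 and 0.73, and the catabolic gene SAT2 and the regulators OAZ2 and AZIN1 rose, out of 11 measured (2 lower and 1 higher without the block). Lower and higher members were 27.3% each, against 11% and 13.9% of all genes. AMD1, which makes the aminopropyl donor, measured 12.80, 12.35, 11.53 and 12.11 on siNS arrays 1 to 4 and 11.50, 11.15, 10.13 and 11.22 on sip300 arrays 1 to 4 (adjusted p = 0.000109, and 0.078 without the block). Other AZIN1 probes differed by -0.00 and 0.09. SAT2 differed by 0.53 (adjusted p = 0.012, and 0.0547 without the block). Calls were lost for SAT2 without sip300 array 4 (adjusted p up to 0.0557) and for AZIN1 without siNS array 1 or sip300 array 1 (adjusted p up to 0.058).

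Members of signalling lists were called in both directions. Of 27 BMP, activin and TGF-beta genes, 3 rose and 5 fell (11.1% and 18.5%, against 13.9% and 11% of all genes). BMP7, a secreted bone morphogenetic protein, measured 9.02, 8.80, 8.87 and 9.59 on siNS arrays 1 to 4 and 6.40, 6.88, 7.38 and 7.81 on sip300 arrays 1 to 4 and differed by -1.95 ± 0.19 (adjusted p = 2.07e-06). The activin subunit gene INHBB differed by -1.07, the pseudoreceptor BAMBI by -0.95 and the coreceptor TGFBR3 by -0.82, while the receptor BMPR2 differed by 0.97. Of 19 Notch genes, 2 rose and 5 fell, 10.5% and 26.3% (1 and 2 genes without the block). HES1, a repressor induced by Notch, measured 8.83, 9.02, 8.06 and 8.50 on siNS arrays 1 to 4 and 7.65, 7.63, 7.05 and 6.94 on sip300 arrays 1 to 4 and differed by -1.28 ± 0.16 (adjusted p = 2.15e-05). NRARP, another Notch target, was detected on 4 siNS and 0 sip300 arrays and was at least 1.71-fold lower (adjusted p = 0.000414). DTX3 was at least 1.25-fold higher (adjusted p = 0.00147), the ligand DLL1 differed by 0.69 (adjusted p = 0.0182, and 0.0887 without the block) and the glycosyltransferase LFNG by -0.71 (adjusted p = 0.00627, and 0.133 without the block), while its other 2 probes differed by -0.10 and 0.16. The DLL1 call was lost without siNS array 1 or 2 or sip300 array 1 (adjusted p up to 0.0895).

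Of 28 Wnt genes, 4 rose and 1 fell (3 and 1 without the block), which was 14.3% and 3.57% against 13.9% and 11% of all genes. The ligand WNT7B differed by -1.40 (adjusted p = 0.000661), the receptor FZD3 by 0.87 (adjusted p = 0.000362), the corepressor TLE1 by 0.70 (adjusted p = 0.00256) and the coactivator BCL9 by 0.74 (adjusted p = 0.0029). FZD2 differed by 0.73 (adjusted p = 0.00624, and 0.166 without the block). None of 17 measured CREB and immediate early genes was called in limma with the block or without it, although CREB gave CBP its name. The smallest unadjusted p were those of JUN, with a difference of -0.50 (adjusted p = 0.0637), and EGR1, with 0.59 (adjusted p = 0.0681). Of 25 adhesion genes 2 rose and 2 fell, smaller shares than the 13.9% higher and 11% lower of all genes. CLDN8, a tight junction claudin, measured 8.45, 8.42, 8.11 and 7.26 on siNS arrays 1 to 4 and 6.42, 6.65, 6.41 and 5.88 on sip300 arrays 1 to 4 and differed by -1.72 ± 0.20 (adjusted p = 1.04e-05), and CLDN3 differed by -0.54 (adjusted p = 0.0125, and 0.0732 without the block). The laminin chain LAMB1 differed by 0.87 (adjusted p = 1.84e-05) and the integrin ITGB4, undetected in siNS cells and so with no size given, was called higher (adjusted p = 0.0176). Calls were lost for ITGB4 without siNS array 1 or 3 or sip300 array 1 (adjusted p up to 0.0958) and for CLDN3 without sip300 array 1 (adjusted p up to 0.0737).

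Among acetyltransferases other than EP300, NCOA1, a steroid receptor coactivator, differed by 0.96 (adjusted p = 0.00015), KAT2B, which encodes PCAF, by 0.73 (adjusted p = 0.00272) and NAA50, an N-terminal acetyltransferase, by -0.66 (adjusted p = 0.00505). Of 13 measured, 2 rose and 2 fell, 15.4% each, against 13.9% and 11% of all genes. Of 16 partners of p300 in transcription, 7 rose (43.8%, against 13.9% of all genes) and 0 fell (2 and 0 without the block), with a median of 0.29. They were the pioneer factor FOXA1, the chromatin remodeller SMARCA4, CITED2, TADA3, the deacetylases HDAC3 and SIRT1 and the demethylase KDM1A. SIRT1 differed by 0.78 (adjusted p = 0.00662) and HDAC3 by 0.44 (adjusted p = 0.00693), and CITED2, which binds p300, by 0.80 (adjusted p = 0.0199, and 0.25 without the block). Calls were lost for CITED2 without siNS array 2 or 3 or sip300 array 1 or 4 (adjusted p up to 0.0755) and for SMARCA4 without siNS array 3 or 4 or sip300 array 1, 2 or 3 (adjusted p up to 0.0982). Of 20 histone genes 6 rose and 2 fell (4 and 2 without the block), which was 30.0% and 10.0% against 13.9% and 11% of all genes. H4C8, a histone H4 gene, measured 10.08, 9.99, 9.39 and 9.49 on siNS arrays 1 to 4 and 11.19, 11.08, 10.77 and 10.66 on sip300 arrays 1 to 4 and differed by 1.19 ± 0.13 (adjusted p = 4.36e-06). Histone genes are near-identical copies, so which of them a probe read is uncertain.

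Cytosolic ribosomal protein genes showed little movement. Of 31 measured, limma called 0 with or without the block, and the median difference was -0.00. RPL8 and RPS23 had the smallest unadjusted p, with differences of 0.23 (adjusted p = 0.251) and -0.18 (adjusted p = 0.279). A second RPL8 probe differed by -0.38. Of 17 tubulin genes 2 were called higher and 4 lower (11.8% and 23.5%, against 13.9% and 11% of all genes). TUBB3 and TUBB4A, beta-tubulins of neurons, rose by 1.99 and 1.99, and TUBA3C and TUBA3D fell by 2.38 and 1.69. TUBB3 measured 9.75, 11.09, 10.84 and 9.52 on siNS arrays 1 to 4 and 12.33, 12.65, 12.85 and 11.34 on sip300 arrays 1 to 4. TUBA3C, TUBA3D and TUBA3E are near-identical, so their probes may read one another.

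Markers of other cell types were checked against the same arrays. Of 13 luminal prostate markers 10 were measured, 5 fell and 1 rose. Those that fell were KRT18, KRT19, KLK3, KLK2 and TMPRSS2, of which KLK3, KLK2 and TMPRSS2 were already counted in the androgen-induced list. The shares lower and higher were 50% and 10.0%, against 11% and 13.9% of all genes. KRT19, a luminal keratin, measured 7.54, 6.39, 6.70 and 7.58 on siNS arrays 1 to 4 and 5.45, 5.35, 5.44 and 6.04 on sip300 arrays 1 to 4 and differed by -1.48 ± 0.27 (adjusted p = 0.000538). The summed linear signal of the measured luminal markers, KLK3, KLK2 and TMPRSS2 among them, ranged from 16510 to 20420 units on siNS and from 8711 to 14900 on sip300 arrays. FOLH1, the gene of prostate-specific membrane antigen, differed by 0.51 (adjusted p = 0.0193, and 0.255 without the block), and its call was lost without siNS array 1 or 4 or sip300 array 3 or 4 (adjusted p up to 0.0779). Of 17 neuroendocrine and neuronal markers 8 were measured, 3 rose (37.5%, against 13.9% of all genes) and 0 fell, with a median of 0.29. The summed linear signal of the measured ones ranged from 1248 to 3092 units on siNS and from 3759 to 8197 on sip300 arrays. Such a sum follows its brightest members, and TUBB3, with the levels given above, made up much of it. The 3 that rose were TUBB3, the dendritic protein gene MAP2 and the enolase gene ENO2. MAP2 differed by 0.96 (adjusted p = 0.00799) and ENO2 by 0.96 (adjusted p = 0.036, and 0.15 without the block). The ENO2 call was lost without siNS array 1, 3 or 4 or sip300 array 1, 3 or 4 (adjusted p up to 0.135), and a MAP2 probe detected on 3 of the 8 arrays differed by 0.06. The defining neuroendocrine genes CHGA, CHGB, SYP, NCAM1, SCG3, SCG5, SNAP25 and NEFM were detected on none of the 8 arrays. Of 10 stroma markers 4 were measured and ACTA2, smooth muscle actin, rose by 1.51, with FN1 and DES undetected and sums of 729.5 to 1735 and 906.8 to 2005 units. Of 12 leukocyte markers 4 were measured and HLA-DRA, a class II gene, fell by 0.58, with a difference of 0.00 on a second probe detected on 1 of the 8 arrays, while CD3D, CD3E, LYZ, TYROBP, LAPTM5 and CD74 were undetected. Their sums were 669.3 to 896.6 units on siNS and 549.3 to 808 on sip300 arrays. The part of any of these markers in the results above was not tested.

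Most genes called under DHT were called the same way at 0 h. The same comparison on the 8 arrays of siNS and sip300 cells at 0 h, which shares no array with that at 16 h, called 2598 genes (20.9%), 1442 higher (11.6%) and 1156 lower (9.29%). Of the genes called higher under DHT 1022 were also called higher at 0 h, which was 59.1% of the list at 16 h and 70.9% of the list at 0 h. Of those called lower 790 were shared, 57.6% and 68.3%. Only 1 gene was called in opposite directions. The largest changes include both kinds. PCDHB2 differed by 2.54 at 16 h and 2.20 at 0 h, RPRML by -2.87 and -2.86 and SLC7A5 by -1.79 and -2.03. NPPC differed by -3.49 at 16 h and was not called at 0 h (adjusted p = 0.315), where 1 of 4 siNS and 0 of 4 sip300 arrays detected it. In the direct test of the change between both times, given next, NPPC was not called.

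The difference between both differences was tested for each gene, and limma called 11 of 12438 genes (0.0884%), 4 with a higher (0.0322%) and 7 with a lower value (0.0563%) at 16 h, with 747 at an unadjusted p under 0.05. Without the block 1 gene was called, and leaving out single arrays gave 4 to 11. SLC2A3 was undetected at 0 h in both arms and reached the level given above only at 16 h. Its means in siNS and sip300 cells were 4.69 ± 0.11 and 4.77 ± 0.06 at 0 h and 8.23 ± 0.54 and 5.54 ± 0.59 at 16 h (SD, n = 4), and the adjusted p of the difference was 0.000583. No size is given for it, since both 0 h groups were below detection. PGC measured 5.70 ± 0.43 and 5.46 ± 0.18 at 0 h and 9.16 ± 0.63 and 6.72 ± 0.32 at 16 h. At 0 h it was detected on 1 of 4 siNS and 0 of 4 sip300 arrays, so no size is given here either (adjusted p = 0.00579). RUNX1, a transcription factor, was also undetected at 0 h in both arms and measured 7.56 and 5.92 in siNS and sip300 cells at 16 h (adjusted p = 0.0184). MICAL1, an actin-oxidising enzyme, measured 7.35 ± 0.12 and 8.02 ± 0.62 at 0 h and 10.05 ± 0.42 and 8.77 ± 0.29 at 16 h, so that sip300 cells lay below siNS cells at 16 h only, with a difference of -1.95 ± 0.36 (adjusted p = 0.0444). LINC00930, a noncoding RNA, differed by -1.51 ± 0.25 (adjusted p = 0.0182).

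The other 6 genes were not covered by the naming rule and are given after their values were seen. HOXC13 and HOXC9, homeobox transcription factor genes, measured 11.11 ± 0.28 and 9.99 ± 0.42 at 0 h and 9.20 ± 0.35 and 9.40 ± 0.37 at 16 h and 8.65 ± 0.39 and 6.70 ± 0.44 at 0 h and 6.28 ± 0.36 and 6.09 ± 0.37 at 16 h. In both, sip300 cells at 0 h already lay below siNS cells, and at 16 h the arms lay close together, with differences of 1.32 ± 0.16 (adjusted p = 0.000583) and 1.77 ± 0.31 (adjusted p = 0.027). TSHZ3, a zinc finger homeobox gene, and GCLC, the rate-limiting enzyme of glutathione synthesis, had the same form, with 0.93 ± 0.16 (adjusted p = 0.0184) and 1.19 ± 0.23 (adjusted p = 0.0459). TIPARP, a mono-ADP-ribosyltransferase gene, differed by 0.59 at 0 h and -0.83 at 16 h, and the difference was -1.42 ± 0.26 (adjusted p = 0.0444). ADAMTS1, a secreted metalloprotease gene, differed by 2.05 at 0 h and by 0.49 at 16 h, not called (adjusted p = 0.0983), and the difference was -1.56 ± 0.30 (adjusted p = 0.0459).

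**Figure D4:**
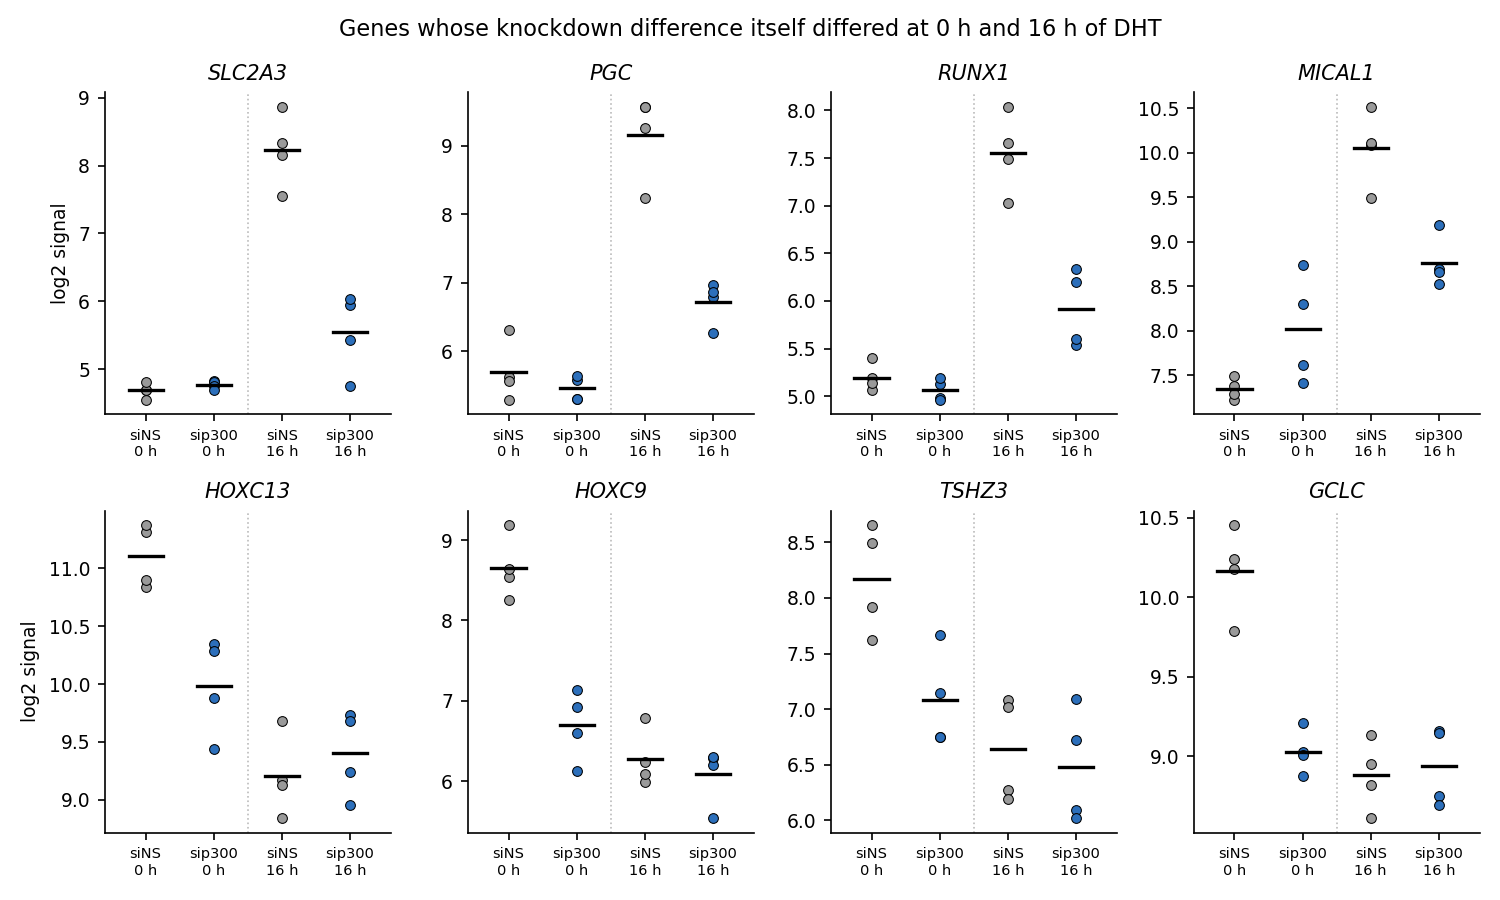
Log2 signal on each array (points, with black bars for means of 4) of siNS (grey) and sip300 cells (blue) at 0 h and 16 h of DHT, for 8 of the 11 genes whose knockdown difference was called apart between both times. In the upper row the siNS mean lies above the sip300 mean at 16 h, while at 0 h the arms lie close or, for MICAL1, sip300 lies higher. In the lower row the arms lie apart at 0 h and together at 16 h.

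How the knockdown difference fell on androgen-responsive genes was also read from genes that DHT moved in siCBP cells, which share no array with the sip300 or siNS groups. There 308 genes were higher at 16 h than at 0 h (2.48% of 12438) and 297 lower (2.39%). Of the 308, 152 (49.4%) were lower in sip300 than in siNS cells at 16 h and 14 (4.55%) higher, with a median of -0.42. At 0 h 66 of them (21.4%) were lower and 28 (9.09%) higher, with a median of -0.14. Of the 297 genes that were lower with DHT, 89 (30.0%) were higher in sip300 cells at 16 h and 33 (11.1%) lower, with a median of 0.19, whereas at 0 h 44 (14.8%) were higher and 85 (28.6%) lower, with a median of -0.13. Over all genes the medians were 0.03 at both times. Of all genes 13.9% were higher and 11% lower at 16 h, and 11.6% and 9.29% at 0 h. The sets were described by these counts and their difference from other genes was not tested.

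**Figure D5:**
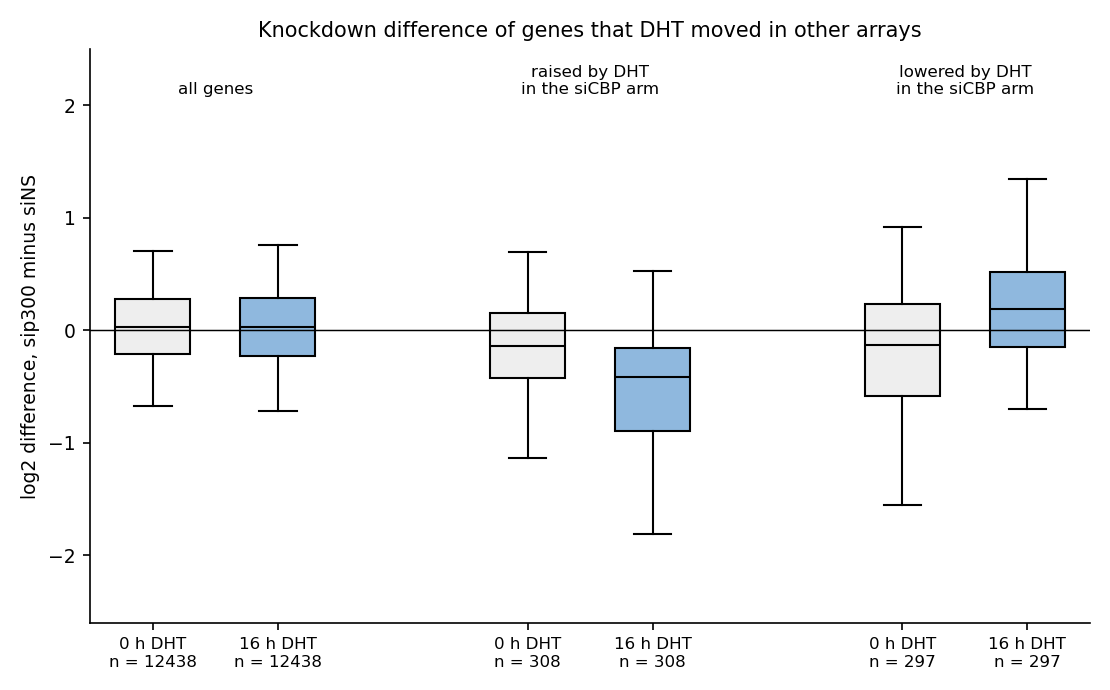
Log2 difference between sip300 and siNS cells at 0 h (grey) and 16 h of DHT (blue) for all 12438 genes, for 308 genes that were higher and for 297 genes that were lower at 16 h than at 0 h in siCBP cells. Boxes span the quartiles with the median, and whiskers reach the percentiles 5 and 95. The raised set has medians of -0.14 and -0.42, and the lowered set of -0.13 and 0.19.

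Fewer genes were called after knockdown of the paralog under DHT. Against the same 4 siNS arrays, siCBP cells differed in 23 genes (0.185%), 8 higher (0.0643%) and 15 lower (0.121%), among them CREBBP by -1.74 ± 0.18 (adjusted p = 0.000122). EP300 itself differed by -0.06 in siCBP cells. Since both comparisons share the siNS arrays, their values are set side by side only. KLK3 differed by -2.12 with sip300 and 0.23 with siCBP, TMPRSS2 by -2.15 and -0.04, IFIT1 by 3.95 and 0.12, CBLN2 by 4.06 and 0.11, and PCNA by -0.88 and -0.40. SLPI, a secreted protease inhibitor gene outside the naming rule and chosen after its values were seen, was called in both, by -3.52 and -1.76. It was not the only one. BANK1, CTSF, MMD, PDLIM7, PNMA1, PPP1R3F and SLC35G1, also outside the rule, were called the same way in both, and VCX, VCX3A and VCX3B in opposite directions. The median of the androgen-induced list was -0.77 with sip300 and -0.01 with siCBP, and that of the interferon-stimulated list 0.95 and -0.00.

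The direct test of sip300 against siCBP cells under DHT called 2405 genes (19.3%), 1405 higher (11.3%) and 1000 lower (8.04%). Of the genes that were higher than in siNS cells 1097 (63.4%) were also higher than in siCBP cells, and of the lower ones 790 (57.6%) were also lower, counts that rest on the same sip300 arrays. PCDHB2, TUBB3 and TUBB4A were higher than in siCBP cells by 3.11, 2.37 and 2.01, and SERPINB5, the maspin gene, by 1.97. GDF15, RPRML, SLC7A5 and CGN, which encodes the tight junction protein cingulin, were lower, with differences of -3.39, -2.35, -1.60 and -1.49. VCX, a testis-expressed X-linked gene, differed from siNS by 0.70 (adjusted p = 0.000379, and 0.0694 without the block) with sip300 and by -0.72 with siCBP, and sip300 exceeded siCBP by 1.42 ± 0.12 (adjusted p = 5.45e-07).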

How the data were processed

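Total RNA of C4-2B cells was measured on 24 Illumina bead arrays in 6 groups of 4, and the 8 arrays with sip300 or siNS after 16 h of DHT were compared. The deposited table held, per the file headers, each probe's mean intensity, not normalised, with a detection p-value. The authors' processed values, deposited on a log2 scale and made with limma per the submitters' processing notes, served as an alternative.

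Here neqc (limma 3.58.1, R 4.3.3, offset 16) corrected background and normalised the arrays, and took its negative-control estimate from the detection p-values. Of 47231 probes, 23038 passed detection (p under 0.05) on 4 or more arrays. Of these 16655 named 1 gene, 4 several and 6379 none, and the brightest probe per gene left 12438 genes. One limma fit held 6 group means and replicate number (15 residual degrees of freedom), with 2-sided tests and Benjamini-Hochberg adjustment in each contrast. The number of arrays limits the precision.

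Labels give only replicate numbers, and the pairing was read from the data: 60 same-numbered pairs correlated in their deviations at 0.15 to 0.596 (median 0.335), different numbers at -0.414 to 0.246 (median -0.14). Genes were named by a rule: 7 by name, up to 15 each way by size and 5 by level among called genes whose groups did not overlap, up to 5 called members of each of 29 lists, and up to 5 each way for the differences from 0 h and from siCBP. Members and lists were chosen with earlier results of these data known, and the comparison with genes that DHT moved in siCBP cells was added after the data were seen. Promoters came from RefSeq (GRCh38.p14). The test was tried on simulated data. Alternatives were the fit without the block, slide as a block or alone, fewer arrays, the authors' values, and other normalisation, filter, probe and limma options.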

Additional observations from a re-analysis of the deposited data

Results flagged for a closer look

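Single arrays that lay apart from the other 3 of their group were looked for in 310 groups of 4, and 19 passed, where chance gives about 1 in 20. The number given is the gap to the nearest array as a share of the group's range. In siNS cells, EP300 was lowest on array 2 (0.895), TMPRSS2 and PHLDA2 lowest on array 3 (0.908 and 0.918), SLC7A5 and DLL1 lowest on array 1 (0.86 and 0.836) and CASP6 highest on array 3 (0.961). In sip300 cells, array 1 was highest for EAF2 (0.878), INSIG1 (0.972) and HLA-B (0.834) and lowest for SHMT2 (0.864) and SAT2 (0.871). Array 2 was highest for EGR1 (0.908) and AUTS2 (0.9), and array 3 lowest for KLK3 (0.868). Array 4 was lowest for MARCKSL1 (0.97), MAGED1 (0.889), EBP (0.946) and HLA-DRA (0.881) and highest for KRT19 (0.858). EP300 measured 7.90 on siNS array 2 against 8.53 to 8.60 on the other siNS arrays, and EP300 differed by -1.28 to -1.12 when each array of either group was left out.

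The knockdown difference at 16 h minus that at 0 h was called for 11 genes in limma. SLC2A3, PGC and RUNX1 have no measured size, since at least 1 of their 0 h groups was undetected on all 4 arrays, and their adjusted p were 0.000583, 0.00579 and 0.0184. The difference was 1.32 for HOXC13, -1.51 for LINC00930, 0.93 for TSHZ3, 1.77 for HOXC9, -1.95 for MICAL1, -1.42 for TIPARP, -1.56 for ADAMTS1 and 1.19 for GCLC.

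Of 6379 kept probes with no gene name, tested separately and used in no comparison above, 368 (5.77%) were called between sip300 and siNS cells under DHT, 148 higher and 220 lower.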

How the results depend on the processing

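The count of 3101 genes was 1815 with no replicate block, 2002 with slide as a block, 428 on slide 1 and 40 on slide 2 alone, and 2148 to 3167 when single arrays were left out. EP300 kept its direction throughout, missed the threshold on slide 1 (-0.95, adjusted p = 0.131) and slide 2 alone (-1.43, adjusted p = 0.106), and lay between -1.28 and -1.12 when single arrays were left out. At 0 h the count of 2598 became 1236 with no replicate block, 1415 with slide as a block, 44 and 172 on slides 1 and 2, 1210 with only the arrays compared, and 1725 to 2660 when single arrays were left out, lowest without siNS array 1 of 0 h. Against siCBP 2405 became 1210, 1394, 182 and 17, 1267, and 1506 to 2502, lowest without sip300 array 1 and 1596 without sip300 array 4.

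The count of 11 genes between both times was the least stable. It was 1 with no replicate block, 2 with slide as a block, 0 on slide 1 and 0 on slide 2 (648 and 812 genes at an unadjusted p under 0.05), 3 with only the arrays compared, 7 without a filter, 25 after quantile normalisation alone, 35 on the authors' values and 22 with trend and robust options. Leaving out single arrays gave 4 to 11, and 7 or fewer without siNS array 1, 2, 3 or 4 of 0 h, sip300 array 2 of 0 h, siNS array 1, 2 or 4 of 16 h, or sip300 array 3 or 4 of 16 h. The cause was not tested.

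Of 147 named called genes none reversed under any of these alternatives, of which detection on all 24 arrays could be tried on 106. With no replicate block 28 lost the call, with slide as a block 26, on slide 1 alone 93, on slide 2 alone 135 and with only the 8 arrays 20, and leaving out single arrays cost 3 to 13. The authors' values, quantile normalisation alone, the replicate block with slide, and trend and robust options cost 0. Among genes never called, RPL8 turned to -0.075 as the mean of its probes, RPS23 to 0.14 on slide 2, and NGFR (-0.03) to 0.0073 on slide 1 and to -0.17 to 0.078 when single arrays were left out, above 0 without siNS array 3 or sip300 array 2. Genes undetected in a group have at most a bound.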

Other observations

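A further 11 genes past 4-fold lay outside the naming rule and were chosen after their values were seen. TMEFF2, a prostate transmembrane gene with follistatin and EGF-like domains, measured 4.73, 9.67, 9.35 and 4.89 on siNS arrays 1 to 4 and 10.23, 12.78, 12.79 and 7.74 on sip300 arrays 1 to 4. Arrays 2 and 3 were the higher ones in both groups and the groups overlapped, with a difference of 3.73 ± 0.59 (limma adjusted p = 0.000186, and 0.0897 without the block). EPHA3, an ephrin receptor gene, differed by 2.22 (adjusted p = 0.000667, and 0.056 without the block). The antiviral genes IFI27 and OASL and the phospholipase gene PLAAT4 were undetected on all 4 siNS arrays, detected on 3, 2 and 3 of 4 sip300 arrays, and at least 4.4-fold, 2.2-fold and 2.92-fold higher (adjusted p = 0.00475, 0.0242 and 0.00595). OASL missed the threshold without the block (adjusted p = 0.058). UGT2B11 differed by 2.43 (adjusted p = 0.00156, and 0.0951 without the block).

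SLPI, a secreted protease inhibitor gene, measured 11.80, 9.47, 7.96 and 11.08 on siNS arrays 1 to 4 and 7.28, 5.37, 5.26 and 8.33 on sip300 arrays 1 to 4, with arrays 1 and 4 the higher ones in both groups. It passed detection on 2 of 4 sip300 arrays. The groups overlapped and the difference was -3.52 ± 0.34 (adjusted p = 2.07e-06). THBS1, the gene of the matrix protein thrombospondin-1, differed by -2.01 (adjusted p = 4.32e-05), CA12, a membrane carbonic anhydrase, by -2.10 (adjusted p = 4.86e-05), the sialyltransferase gene ST6GALNAC1 by -2.14 (adjusted p = 0.000619) and the tubulin gene TUBA3E by -2.14 (adjusted p = 4.04e-06). At 0 h of DHT SLPI, THBS1, CA12 and TUBA3E differed by -3.40, -1.47, -2.23 and -1.23. ST6GALNAC1, detected there on 2 of 4 siNS and 0 of 4 sip300 arrays, was not called (adjusted p = 0.0772), and its change between both times was not called either.

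AUTS2, a neurodevelopmental gene, UNC5A, a netrin receptor gene, and TGM3, a transglutaminase gene, were named by the rule as the genes with the smallest unadjusted p for a higher difference at 16 h than at 0 h, among genes called at 16 h that did not pass that test. AUTS2 differed by 0.73 at 16 h and -0.39 at 0 h, UNC5A by -0.69 (adjusted p without the block 0.314) and -1.71, and TGM3 by -1.20 and -2.39. The change between both times was not called for them (adjusted p = 0.0734, 0.152 and 0.152).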
